A study of Mus musculus with 8 samples.

Results

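Interferon-stimulated genes are the genes that cells switch on when interferons bind their receptors. They were examined in mouse lung after removal of the left lung (pneumonectomy, PNY) or a sham thoracotomy (SHAM). The list held 42 such genes, and a gene was measured where a probe set carried its symbol alone. That was so for 40 of the 42, of 18193 genes in all. Isg15 and Ifi44 had no probe set of that kind and are not analysed here. Where a gene had several probe sets, the one with the highest mean over the 8 arrays stood for it.

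All animals were adult female C57BL/6 mice, 10 to 12 weeks of age, that were anaesthetized, ventilated, given ampicillin and opened on the left side. In PNY the left lung was tied off at its root. In SHAM the chest stood open for 5 minutes and the lung was kept. Lung was taken 6 hours after surgery and after 1, 3 or 7 days, and tissue from 8 mice was pooled on each of the 8 arrays, so each surgery had 1 array per time point and 4 in all. A difference at 1 time point therefore has no replicate check, and in whole lung fewer cells of a type and less RNA per cell cannot be told apart. Levels are RMA values on the log2 scale, where a difference of 1 is a doubling, and a fold change of 1.5 was the threshold for size.

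Type I interferons act through a receptor on nearly all cells and a complex of STAT proteins with Irf9, which binds the interferon-stimulated response element in the promoters of its targets. Interferon gamma, made mainly by NK and T cells, acts through another receptor and a STAT dimer that binds the gamma-activated site. Many genes answer to both. In the lung they are best known for the defence against respiratory viruses, and some are also expressed at rest.

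The response elements can be read directly in the promoters. The core of the interferon-stimulated response element, GAAA followed by any 2 bases and again GAAA, was searched on both strands in the RefSeq promoters of GRCm38.p6, each 250 bases before to 50 bases after a start site. It was found in 16 of the 34 promoters of measured members (47.1%) and in 3.44% of all 32851 promoters. The 34 promoters belonged to 29 genes, 15 of which held it. The stretches below lie before the start site, run 5′ to 3′ along the strand of the gene, and have each match in capitals, which reads TTTC, any 2 bases, TTTC where the element lies on the other strand. Only promoters with a match are shown. Ifit1, Ifit3 and Rsad2 were the members furthest below SHAM at 6 hours. Igtp and Irgm2 were among those furthest below SHAM at 3 days. Bst2 and Oas1a were among the members lower at 6 hours than at later times. Psmb9 and Psmb8 were also lower at 6 hours than later, but their promoters did not hold this core and are not shown.
Ifit1: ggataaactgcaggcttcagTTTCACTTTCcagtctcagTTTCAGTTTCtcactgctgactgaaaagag
Ifit3: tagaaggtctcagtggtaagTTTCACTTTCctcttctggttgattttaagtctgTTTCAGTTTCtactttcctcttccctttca
Rsad2: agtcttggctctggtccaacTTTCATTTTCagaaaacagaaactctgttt
Igtp: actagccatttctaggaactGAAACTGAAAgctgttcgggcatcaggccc
Irgm2: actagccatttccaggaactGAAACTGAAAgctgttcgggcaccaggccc
Bst2: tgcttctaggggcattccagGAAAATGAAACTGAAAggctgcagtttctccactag
Oas1a: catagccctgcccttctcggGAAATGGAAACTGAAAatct

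The Ifit1 stretch is chr19:34640765-34640833 and the Ifit3 stretch chr19:34583353-34583436, both on the plus strand, with 2 matches each. The Rsad2 stretch is chr12:26456543-26456592 on the minus strand. The Igtp stretch is chr11:58199502-58199551 and the Irgm2 stretch chr11:58214893-58214942, both on the plus strand. These neighbouring genes had the same base at 48 of the 50 positions. The Bst2 stretch is chr8:71537567-71537622 and the Oas1a stretch chr5:120907526-120907565, both on the minus strand, each with 2 overlapping matches. The letters TTCNNNGAA, the core of the gamma-activated site, were in 9 of the 34 promoters of members (26.5%) and in 8.30% of all promoters. Igtp, Irgm2 and Bst2 were among these 9, and in Bst2 the match overlapped the first match of the other motif. A match describes letters in the window and was not tested as a binding site.

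Interferon-stimulated genes gave signal in lung after either surgery. The mean log2 level of a member over the 8 arrays ran from 4.76 to 10.99 with a median of 9.02, and 39 of the 40 lay above 5.92, the median of all probe sets, as did 66.8% of all genes, each taken at its brightest probe set. The exception was Mx1, an antiviral GTPase whose gene is defective in C57BL/6 mice, at 4.76. The markers of alveolar type II cells summed to between 121 and 123 log2 units over 9 genes in every array. Such a sum shows lung in each array but cannot show whether other tissue was mixed in. Markers of skeletal and cardiac muscle were lower in PNY at 1 day for 9 of 10 genes (median difference -0.38). At 7 days they were higher in PNY for 9 of 10 (median 0.74). The SHAM array of 6 hours had a slightly narrower distribution (SD 2.42 log2 units) than the other 7 (2.47 to 2.52).

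The members varied together between arrays. The SHAM array of 3 days held the highest value of 31 of the 40 members, against 11.7% of all genes. The SHAM array of 6 hours held it for 6 (Ifit1, Oas3, Oasl1, Mx2, Rsad2 and Trim30a), or 15% of members against 18.1% of all genes. The PNY array of 3 days held it for 3 (Dhx58, Eif2ak2 and Mx1), or 7.5% against 8.25%. The lowest value was in SHAM of 1 day for 18 members (45%), against 15.6% of all genes. It was in PNY of 6 hours for 16 (40%), against 13%. The median level over members was 8.73 and 9.13 at 6 hours in PNY and SHAM, 8.74 and 8.58 at 1 day, 9.09 and 9.33 at 3 days, and 8.94 and 8.95 at 7 days.

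**Figure D1:**
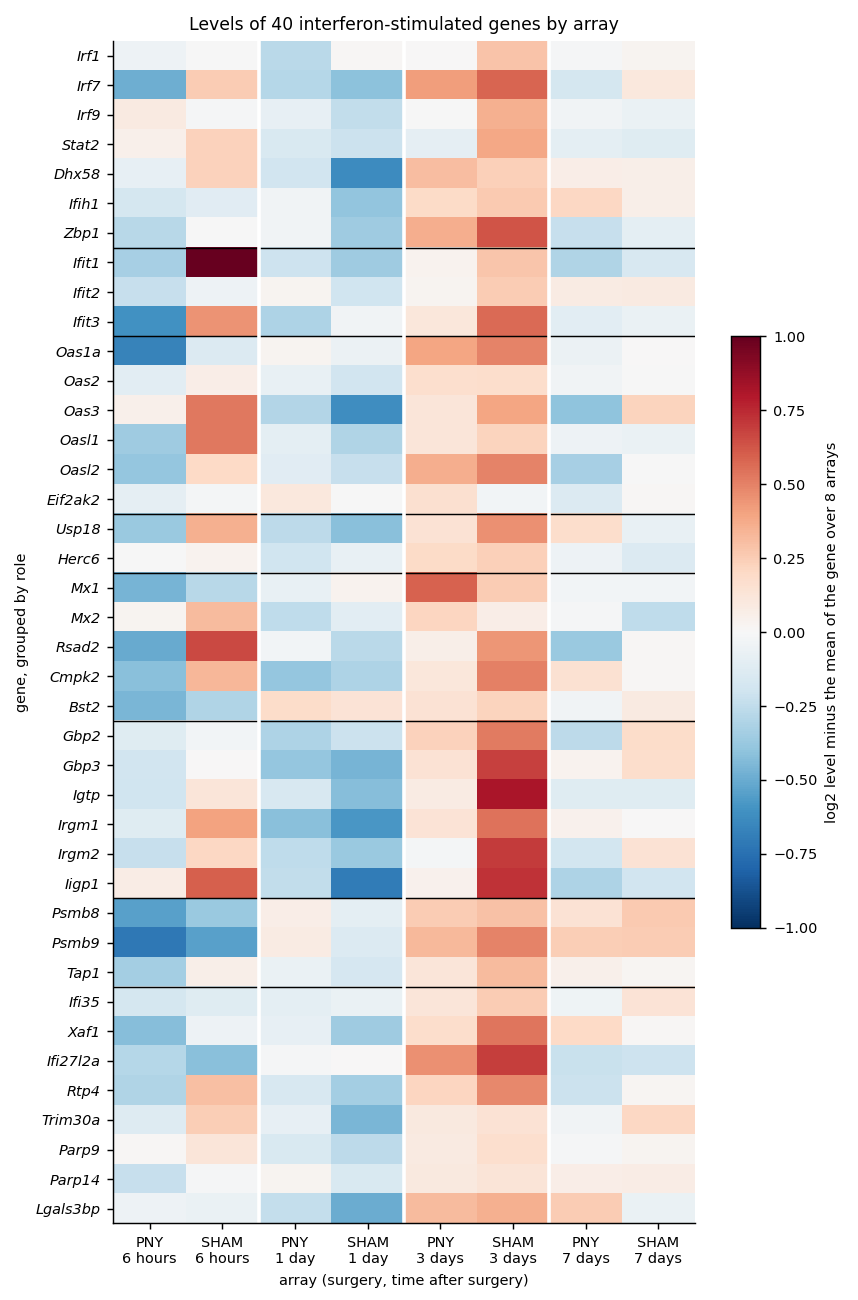
Levels of the 40 measured interferon-stimulated genes (rows, grouped by role) in the 8 arrays (columns, PNY and SHAM side by side at each time point), as the log2 level minus the mean of the gene over the arrays. Red is above and blue below the mean of the gene, and colours are capped at 1 log2 unit either way. The SHAM array of 3 days holds the highest value for 31 genes (11.7% of all genes). The lowest is in SHAM of 1 day for 18 (15.6% of all genes) and in PNY of 6 hours for 16 (13%).

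Compared over all time points, which asks for a time-independent effect of pneumonectomy, no interferon-stimulated gene passed the test as run here. Rank products over the 16 PNY and SHAM array pairs, at P under 0.001 together with 1.5-fold either way, called 0 of 40 members higher and 0 lower, where the background was 0.506% of all genes higher and 0.0605% lower. Limma with Benjamini-Hochberg adjustment called no member and no gene at all (0%), and 1 member (Ifit3) was lower at an unadjusted p under 0.05, against 2.17% of all genes in either direction. The mean difference PNY minus SHAM lay below 0 for 35 of the 40 members and for 8571 of all 18193 genes. Over members it ran from -0.46 (Ifit3) to 0.14 (Lgals3bp). The median was -0.11 on the log2 scale, against 0.01 over all genes. Over time points the median of the members averaged -0.10 ± 0.19 (SD, n = 4 time points). Irf1, Ifit3, Gbp2 and Ifi35 were lower in PNY at all 4 time points, and no member was higher at all 4. Over all 18193 genes, 1080 were lower and 1702 higher at all 4.

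Ifit3, which binds Ifit1 and helps it recognize foreign RNA caps, had the largest mean difference of the list. Its log2 level in PNY was 8.97, 9.26, 9.68 and 9.46 at 6 hours, 1, 3 and 7 days, and in SHAM 10.02, 9.53, 10.14 and 9.50. PNY lay below SHAM at each time, but the values of the surgeries overlapped. The mean difference was -0.46 ± 0.43 (SD over 4 time points), with a rank product P of 0.00127 and an exact permutation p of 0.114 (two-sided, over the 70 splits of 8 arrays, whose smallest p is 0.0286). Without both arrays of 7 days Ifit3 passed the rank product threshold, at a mean difference of -0.59.

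Rsad2, which encodes viperin, an enzyme that makes a chain-terminating nucleotide against viruses, was close behind. PNY read 7.81, 8.29, 8.38 and 7.95 and SHAM 8.98, 8.05, 8.76 and 8.33 in the order of time. PNY was lower at 3 time points and higher at 1 day, and the ranges overlapped. The mean difference was -0.42 ± 0.58 (SD, n = 4 time points), with a rank product P of 0.00254 and an exact permutation p of 0.143. Its other probe sets gave -0.47 and -0.54 with rank product P-values of 0.000553 and 0.000388, which pass on P but are short of a fold change of 1.5. The study's own time-independent list, made with rank products at the same thresholds, held Rsad2 as 1.5-fold lower in PNY. Without both arrays of 1 day Rsad2 passed both thresholds, at a mean difference of -0.64.

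Ifit1, which binds viral RNA with a foreign cap, had a mean difference that rested on 1 array. The SHAM array of 6 hours read 9.68, and the other 3 SHAM arrays read 8.29, 8.92 and 8.49 at 1, 3 and 7 days. The PNY arrays read 8.31, 8.44, 8.68 and 8.34, all within the range of those 3. The mean difference was -0.40 ± 0.66 (SD, n = 4 time points), with an exact permutation p of 0.286.

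Irgm2, a regulatory GTPase of the immunity-related family that guards vacuole membranes, showed a steady level in PNY and a variable one in SHAM. PNY read 9.14, 9.11, 9.34 and 9.18, with an SD of 0.10 over its 4 arrays, and SHAM read 9.57, 9.0, 10.06 and 9.51, with an SD of 0.44. The lowest value of all was in SHAM, so the surgeries overlapped. The mean difference was -0.34 ± 0.35 (SD, n = 4 time points), with an exact permutation p of 0.171. Among all members the lowest exact permutation p was 0.0571, for Irf1, a transcription factor induced by interferon gamma.

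Time points can be read as pairs of arrays, since PNY and SHAM arrays of the same time deviated from their group means together. The pairing was weakest at 7 days, when the PNY array went no less with SHAM of 3 days. With time point as a block limma again called 0 members, and 3 (Ifit3, Irgm2 and Gbp2) were lower at an unadjusted p under 0.05, against 5.9% of all genes in either direction.

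At 6 hours the interferon-stimulated genes were lower in PNY than in SHAM almost throughout. Of 40 members 37 were lower, against 46.7% of all genes, and the median difference was -0.28 on the log2 scale, against 0.02 over all genes. Past a fold change of 1.5, 9 members (22.5%) were lower and 0 higher, where 1.04% of all genes were lower and 0.682% higher by that much. These 9 were Ifit1, Rsad2, Ifit3, Oasl1, Cmpk2, Irf7, Usp18, Rtp4 and Oasl2. The differences of this time point were not tested by themselves, and a test against the later times was made.

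Ifit1, Rsad2 and Ifit3 stood furthest apart at 6 hours. Ifit1 was 2.58-fold, Rsad2 2.25-fold and Ifit3 2.07-fold higher in SHAM than in PNY. The third family member on the arrays, Ifit2, was close in both (8.11 in PNY and 8.29 in SHAM). All 3 probe sets of Rsad2 gave a lower value in PNY, with log2 differences of -1.17, -1.17 and -1.74.

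Among sensors and transcription factors, Irf7, the factor that amplifies type I interferon production, was 1.67-fold higher in SHAM (8.82) than in PNY (8.08). Irf9, the DNA-binding partner of the STAT complex, ran the other way, at 9.13, 8.97, 9.04 and 9.01 in PNY and 9.03, 8.80, 9.40 and 8.98 in SHAM in the order of time. The RNA helicases Ifih1 and Dhx58, which detect viral RNA, differed by -0.06 and -0.31 on the log2 scale. A dimmer probe set of Dhx58 gave -1.05, so its probe sets disagreed in size. Of the 7 genes of this group 6 were lower in PNY.

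The OAS genes and Eif2ak2 were all lower in PNY at 6 hours (6 of 6, median -0.50). Most of them stop translation or activate RNA decay when they meet double-stranded RNA. Oasl1, which restrains Irf7 translation, read 6.02 in PNY and 6.90 in SHAM. Oasl2 read 8.81 and 9.40, just past a fold change of 1.5, and Oas1a, 8.62 in PNY of 1 day, read 7.92 and 8.45 at 6 hours. Eif2ak2, which encodes the kinase PKR, read 7.13 and 7.21 by its brightest probe set, with a difference of -0.08, but another of nearly the same brightness gave -0.52.

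Usp18, the protease that removes Isg15 from proteins and damps the type I receptor, read 8.63 in PNY and 9.36 in SHAM at 6 hours. Over the later times it read 8.74, 9.14 and 9.18 in PNY and 8.59, 9.46 and 8.93 in SHAM, so the surgeries overlapped. Its neighbour in function Herc6, an Isg15 ligase in the mouse, read 7.73 and 7.77. Cmpk2, a nucleotide kinase whose gene lies beside Rsad2, read 7.87 and 8.62. Rtp4, a negative regulator of the response, read 9.91 and 10.51.

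The 6 GTPases of the GBP and IRG families were all lower in PNY at 6 hours, by less than a fold change of 1.5 (median -0.38, from -0.52 to -0.09). The proteasome subunits Psmb8 and Psmb9 and the peptide transporter Tap1 were lower by 0.17 to 0.39. At the upper end stood Ifi27l2a (10.04 in PNY and 9.90 in SHAM), Irf9 and Lgals3bp, a secreted glycoprotein (10.67 and 10.66), which were the 3 members not lower in PNY.

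Within PNY the array of 6 hours was the lowest of 4 for 25 of the 40 members (62.5%), against 35.8% of all genes. Within SHAM the array of 6 hours was the highest of 4 for 6 members (15.0%), against 31.0% of all genes. Of the 9 genes past the size threshold 7 had a promoter in the RefSeq table, and 3 of the 7 held the response element core. The median difference at 6 hours was -0.38 for the 15 members with the core and -0.18 for the 14 without.

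Whether the gap at 6 hours exceeded that of the later times was tested with limma as an interaction of surgery with 6 hours, on 2 residual degrees of freedom. It called 0 members and 0% of all genes. At an unadjusted p under 0.05 it marked 8 members as lower (Ifit1, Oasl1, Ifit3, Rsad2, Usp18, Irf7, Oas1a and Cmpk2), against 3.51% of all genes, and the lowest adjusted p of a member was 0.809.

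**Figure D2:**
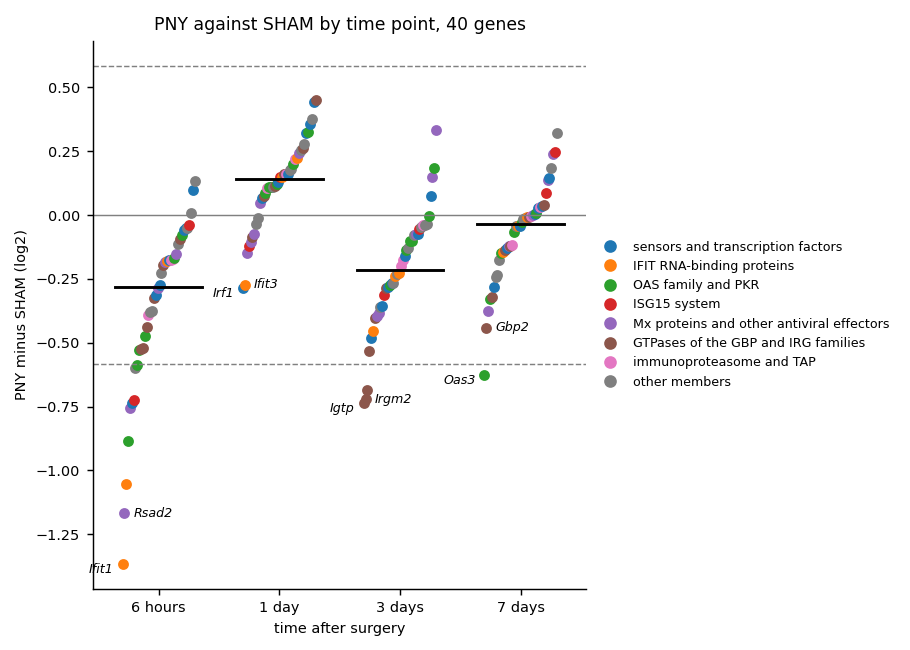
PNY minus SHAM at each time point on the log2 scale for the 40 measured genes, sorted within a time point and coloured by role, with the median as a bar and dashed lines at a fold change of 1.5. At 6 hours 37 points lie below 0 and 9 below the lower dashed line, at 1 day 31 lie above 0, at 3 days 36 lie below 0, and at 7 days 26 do.

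At 1 day the direction was the opposite. Of 40 members 31 were higher in PNY, against 53.6% of all genes, with a median difference of 0.14 against 0.02, and none passed a fold change of 1.5 either way, where 1.88% of all genes were higher and 1.09% lower by that much. Iigp1, an effector GTPase that attacks the vacuoles of intracellular parasites, read 9.92 in PNY and 9.46 in SHAM. Dhx58 read 6.65 and 6.21 at 1 day, and 6.76, 7.15 and 6.91 in PNY and 7.08, 7.08 and 6.91 in SHAM at the other times. Trim30a, a regulator of inflammatory signalling, read 8.96, 9.01, 9.19 and 9.06 in PNY and 9.34, 8.63, 9.23 and 9.30 in SHAM in the order of time. Its SHAM array of 1 day was thus the lowest of the 8. The members below SHAM were led by Irf1 (9.69 and 9.98), Ifit3 and Mx2, another Mx GTPase (5.89 and 6.04). Irf1 read 9.91, 9.97 and 9.95 in PNY and 9.96, 10.25 and 9.99 in SHAM at the other times, with the SHAM array of 3 days the highest. The SHAM array of 1 day was the lowest of the 4 SHAM arrays for 28 members, against 27.1% of all genes. With 1 array per surgery at this time, the part of either array in the order was not tested.

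The PNY array of 1 day also differed in other cells. The markers of T cells were 1.5-fold higher in PNY for 8 of 9 genes measured, with a median difference of 1.27, and those of thymocytes for 8 of 9, with a median of 1.93. The thymocyte markers summed to between 48.3 and 69.8 log2 units over the PNY arrays, with the highest at 1 day, and to between 49.7 and 52.2 over the SHAM arrays. The T cell markers summed to between 58.7 and 73.0 in PNY and between 60.7 and 65.5 in SHAM. Markers of thymic epithelium were higher in PNY at 1 day for 5 of 7 genes measured (median 0.45), 3 of them by 1.5-fold. No value of the arrays is 0, so no marker was at 0. The part of these cells in the values of the interferon-stimulated genes at 1 day was not tested.

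By the interaction test no member was called at 1 day, where 0.055% of all genes were called higher and 0.0055% lower. It marked 7 members as higher at an unadjusted p under 0.05, against 2.85% of all genes, and the lowest adjusted p of a member was 0.644. The dimmer probe set of Herc6 was 0.69 higher in PNY at 1 day where the chosen one was 0.12 lower, the other case in which the probe sets of a member fell on different sides of the size threshold.

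At 3 days the interferon-stimulated genes were again lower in PNY, with the GTPases in front. Of 40 members 36 were lower, against 47.2% of all genes, and the median difference was -0.21 against 0.01. Past a fold change of 1.5, 3 members were lower and 0 higher, where 0.511% of all genes were lower and 1.14% higher by that much. All 3 were immunity-related GTPases. The 6 GBP and IRG genes had a median of -0.61, while the median was -0.24 for the IFIT genes and -0.10 for the OAS group.

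Igtp, a regulatory GTPase also known as Irgm3, read 8.93 in PNY and 9.67 in SHAM at 3 days. At 6 hours, 1 and 7 days it read 8.65, 8.69 and 8.72 in PNY and 8.97, 8.42 and 8.73 in SHAM. Irgm2 read 9.34 and 10.06, and Iigp1 10.20 and 10.89. In all 3 genes the SHAM array of 3 days was the highest of the 8 and the SHAM array of 1 day the lowest. Gbp3, a guanylate-binding protein that restricts intracellular microbes, read 9.44 and 9.97, short of the size threshold. These families hold close relatives, and probes of a member may also bind a paralog, so values of single GTPases are uncertain to that degree.

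A few antiviral genes ran against the rest at 3 days. Mx1 read 5.35 in PNY and 5.01 in SHAM. Eif2ak2 read 7.38 and 7.20 at 3 days, then 7.09 and 7.24 at 7 days, after 7.33 and 7.22 at 1 day. Mx2 read 6.18, 5.89, 6.37 and 6.14 in PNY and 6.47, 6.04, 6.22 and 5.90 in SHAM in the order of time, so PNY was the lower at the first 2 times and the higher at the last 2. Mx1 lies below the median level of all probe sets, where differences are least reliable. Dhx58 (7.15 and 7.08) was the fourth member higher in PNY by its brightest probe set, with a difference of 0.07, but its other probe sets gave -0.53 and -0.20.

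**Figure D3:**
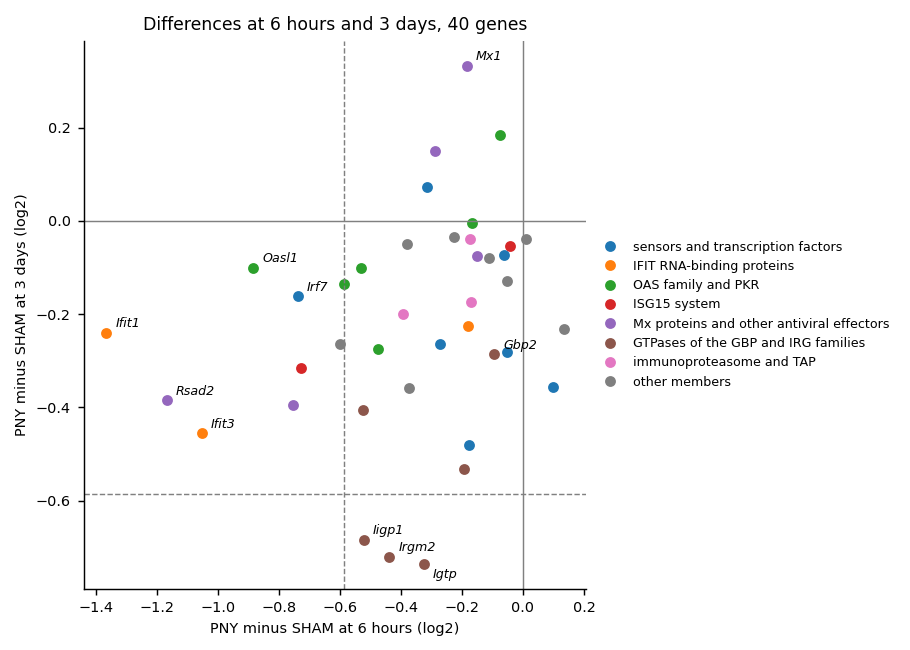
PNY minus SHAM at 6 hours (horizontal) and at 3 days (vertical) on the log2 scale, 1 point for each of the 40 measured genes, coloured by role, with dashed lines at a fold change of 1.5 lower in PNY. Ifit1, Rsad2 and Ifit3 lie furthest to the left and the GTPases Igtp, Irgm2 and Iigp1 lowest, and no gene passes the size threshold at both times.

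NK cell markers were lower in PNY at 3 days for 9 of 9 genes measured (median -0.25). They were also lower at 6 hours for 8 of 9 (median -0.17) and at 7 days for 9 of 9 (median -0.45). They summed to between 53.2 and 61.3 log2 units over the PNY arrays and between 55.0 and 64.5 over the SHAM arrays. The markers of plasmacytoid dendritic cells, which make much type I interferon, were lower for 7 of 9 at 3 days (median -0.18) and for 4 of 9 at 6 hours (median 0.03). Their sums were 63.0 to 70.8 in PNY and 62.8 to 67.1 in SHAM. The highest sum was in PNY of 1 day, when 5 of the 9 were higher than in SHAM and 4 lower (median 0.06). The largest difference of a single marker in that list was then 3.20 log2 units. At 6 hours neutrophil markers were higher in PNY for 8 of 8 (median 0.36), while T cell markers were lower for 7 of 9 (median -0.29) and B cell markers for 7 of 8 (median -0.20). The part of these cells in the differences was not tested.

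At 7 days the surgeries differed little. Of 40 members 26 were lower in PNY, against 50.2% of all genes, with a median difference of -0.03 against 0.00. Nearly all members lay above the median level, and among all genes above it the median at 7 days was also -0.03. Of those genes 37.4%, 42.3%, 47.0% and 57.0% were lower in PNY at 6 hours, 1, 3 and 7 days. The single member past a fold change of 1.5 was Oas3, at 6.36 in PNY and 6.99 in SHAM, where 1.48% of all genes were lower and 1.98% higher by that much. Oas3, which makes the oligoadenylates that activate RNase L, read 6.81, 6.47 and 6.88 in PNY and 7.29, 6.14 and 7.16 in SHAM at the earlier times, and was higher in PNY at 1 day. Gbp2, a guanylate-binding protein, read 10.46, 10.28, 10.81 and 10.32 in PNY and 10.55, 10.36, 11.10 and 10.76 in SHAM in the order of time, with PNY the lower at each. At the upper end were Lgals3bp, Usp18 and Mx2. Lgals3bp read 10.67, 10.48, 11.04 and 10.98 in PNY and 10.66, 10.23, 11.08 and 10.66 in SHAM, with overlapping ranges. Neutrophil markers were lower in PNY at this time for 8 of 8 genes (median -0.89), T cell markers for 8 of 9 (median -0.68) and B cell markers for 7 of 8 (median -0.62), and their part in these values was not tested.

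Levels also moved with time after either surgery, and 6 members were called lower at 6 hours than later. Limma with surgery as a covariate and Benjamini-Hochberg adjustment compared each time point with the mean of the other 3, with the PNY and the SHAM array as the samples of a time. At 6 hours it called 6 of 40 members lower (15.0%) and 0 higher, where the background was 7.72% of all genes lower and 3.50% higher. The 6 were Psmb9, Psmb8, Bst2, Ifi27l2a, Oas1a and Mx1. At an unadjusted p under 0.05 by limma the count stayed at 6 of 40, against 3411 of all 18193 genes. Both arrays of 6 hours lay below all 6 others in 7 members (17.5%), against 18.4% of all genes. By these counts the members did not stand out from genes at large.

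Psmb9, a catalytic subunit of the immunoproteasome, which cuts peptides for class I presentation, stood furthest below its later levels. It read 9.17 in PNY and 9.34 in SHAM at 6 hours, 9.96 and 9.74 at 1 day, 10.21 and 10.38 at 3 days, and 10.13 in both at 7 days. Both arrays of 6 hours lay below the other 6. The difference of 6 hours from the later times was -0.84 ± 0.11 (SE), with an adjusted p of 0.00541 by limma. Its time means spanned 1.04 log2 units, the widest range of the list.

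Psmb8, the neighbouring subunit, read 9.82 and 10.00 at 6 hours and between 10.27 and 10.66 later, a difference of -0.61 ± 0.10 (SE) with an adjusted p of 0.0133 by limma. Bst2, which encodes tetherin, a protein that holds budding virus at the cell surface, read 9.07 and 9.22 and then between 9.49 and 9.75, a difference of -0.50 ± 0.09 with an adjusted p of 0.0186. Both therefore separated 6 hours from the later arrays in PNY and SHAM alike. Tap1, whose gene shares a promoter region with Psmb9, read 7.99 in PNY and 8.38 in SHAM at 6 hours and was not called.

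Ifi27l2a, a short membrane protein strongly induced by type I interferon, read 10.04 in PNY and 9.90 in SHAM at 6 hours, 10.31 and 10.33 at 1 day, 10.78 and 11.01 at 3 days, and 10.11 and 10.12 at 7 days. It was low at 6 hours (difference -0.47 ± 0.10, SE, adjusted p of 0.032 by limma) but nearly as low at 7 days. Oas1a, an oligoadenylate synthetase, read 7.92 and 8.45 at 6 hours, 8.62 and 8.53 at 1 day, 8.98 and 9.09 at 3 days and 8.53 and 8.59 at 7 days (difference -0.54, adjusted p of 0.045 by limma, and 0.0798 after quantile normalization once more). Mx1 read 4.30 and 4.48 at 6 hours, 4.69 and 4.80 at 1 day, 5.35 and 5.01 at 3 days and 4.73 in both at 7 days (difference -0.49, adjusted p of 0.0458 by limma).

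These calls rest on few arrays. Leaving out an array of 6 hours leaves 1 sample of that time, which the fit assumes to vary like the other times. Without the PNY array of 6 hours none of the 6 was called, and Ifit1 was called higher on the SHAM array alone. Without the SHAM array of 6 hours no member was called. Without any 1 array of 3 or 7 days 3 members were called, and Psmb9 and Psmb8 were among them each time.

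**Figure D4:**
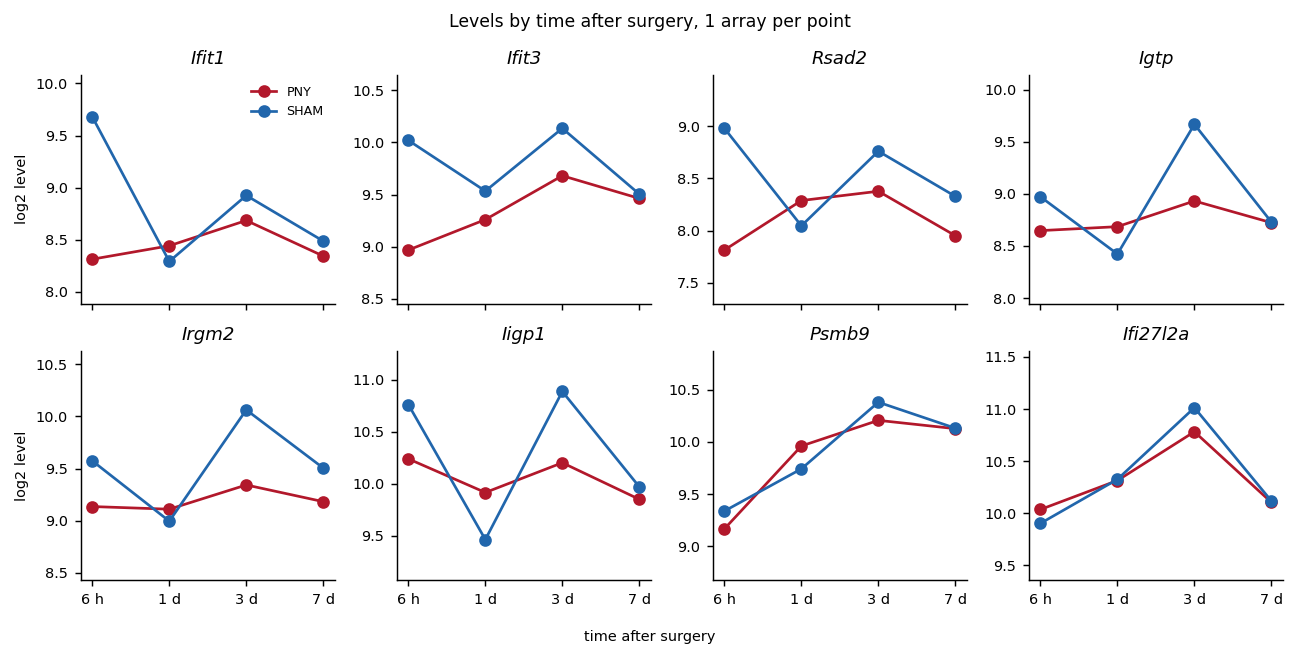
Log2 level of 8 interferon-stimulated genes by time after surgery in PNY (red) and SHAM (blue), 1 array per point, with times evenly spaced and the same span in each panel. Ifit1, Ifit3 and Rsad2 part at 6 hours, Igtp, Irgm2 and Iigp1 part at 3 days with SHAM on top, and Psmb9 and Ifi27l2a run together in both surgeries.

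The 3 day arrays formed the upper end of the course. All 40 members were higher at 3 days than at the other times, as were 10671 of all 18193 genes, with a median of 0.36 log2 units against 0.03. In 31 members 3 days was the highest of the PNY arrays (22.1% of all genes) and in 33 it was the highest of the SHAM arrays (23.3%), and in 14 of 40 both arrays of 3 days lay above all 6 others (3.88% of all genes). No member passed limma's adjusted threshold, where 0.022% of all genes did, and 25 members were higher at an unadjusted p under 0.05, against 5.99% of all genes. The lowest adjusted p was 0.124, for Ifi27l2a, which was 0.76 ± 0.10 (SE) above its other times.

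Irf7 and Iigp1 had wide courses without a call. Irf7 read 8.08, 8.28, 8.98 and 8.39 in PNY and 8.82, 8.15, 9.14 and 8.67 in SHAM, so that both surgeries were highest at 3 days but lowest at different times. Iigp1 read 10.24, 9.92, 10.20 and 9.85 in PNY and 10.76, 9.46, 10.89 and 9.97 in SHAM, and its SHAM arrays enclosed all PNY values.

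At 1 day 38 of the 40 members lay below their other times (median -0.25), as did 10561 of all 18193 genes (median -0.03). At 7 days 22 members did (median -0.03), and 7719 of all genes (median 0.03). Limma called no member at either time, where 0.011% of all genes were called lower at 1 day, and 0.0934% lower and 0.132% higher at 7 days. At an unadjusted p under 0.05, 14 members were lower at 1 day, against 9.13% of all genes. With a trended and robust variance prior 3 members were called at 1 day as lower (Gbp3, Irgm1 and Lgals3bp), against 0.39% of all genes under that prior, and 4 at 3 days as higher (Zbp1, Gbp2, Psmb9 and Ifi27l2a), against 0.401%. Irgm1 is a regulatory GTPase that drives autophagy, and Zbp1 a sensor of left-handed nucleic acids that can start necroptosis.

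The ligands and receptors upstream showed no call between PNY and SHAM. By rank products 0 of the 10 interferon ligands measured (of 19 listed), 0 of 10 receptor and JAK-STAT genes (of 11), 0 of 16 nucleic acid sensors and interferon regulatory factors (of 20) and 0 of 10 negative regulators rose or fell. Ifnb1, which encodes interferon beta, lay between 4.25 and 4.50 in the 8 arrays, and Ifng, which encodes interferon gamma, between 2.93 and 4.03, both below the median level of all probe sets. The receptor chains Ifnar1 (8.06 to 8.47) and Ifngr1 (9.58 to 10.05) were well above it. The ligands with the largest mean differences were Ifnab at 0.20 ± 0.32 and Ifna2 at -0.18 ± 0.25 (SD over 4 time points).

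Ifngr2, the other chain of the interferon gamma receptor, was higher in PNY at all 4 time points (9.17, 9.52, 9.61 and 9.80 in PNY and 9.05, 9.28, 9.40 and 9.55 in SHAM), with a mean difference of 0.20 ± 0.06 (SD). Its values overlapped between surgeries and it did not pass the rank product threshold. Stat3 was 0.11 lower in PNY on average, Irf5 0.16 lower and Tlr7, an endosomal RNA sensor, 0.15 lower. Among negative regulators Tyro3, a receptor kinase, and Socs3, an inhibitor of JAK signalling, were each about 0.1 lower. None of these differences passed the test.

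Cxcl10 and Cxcl9, chemokines induced by interferon gamma, were also lower in PNY at 6 hours. Cxcl10, which draws activated T and NK cells, read 5.74 in PNY and 8.02 in SHAM at 6 hours, 6.27 and 5.66 at 1 day, 7.53 and 6.72 at 3 days and 6.89 and 6.44 at 7 days. The log2 difference PNY minus SHAM was -2.28 at 6 hours, and PNY was the higher at the 3 later times. Cxcl9, a ligand of the same receptor, differed by -1.10 at 6 hours and by 0.63, 0.53 and -0.01 later. Cd274, which encodes PD-L1, had the largest mean difference of this list at -0.34 ± 0.40 (SD over 4 time points), followed by Upp1 at 0.29. By rank products 0 of the 19 genes measured of this list (of 23) rose or fell. At 6 hours 13 of the 19 were lower in PNY (median -0.08), and at 1 day 17 were higher (median 0.16). At 3 days 12 were lower (median -0.02), and at 7 days 11 were higher (median 0.03).

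Another 52 interferon-induced genes (of 68 listed) were measured beside the members, and 0 rose or fell by rank products. At 6 hours 37 of the 52 were lower in PNY (median -0.16), at 1 day 37 were higher (median 0.11), at 3 days 34 were lower (median -0.09) and at 7 days 39 were lower (median -0.13). These medians had the signs of those of the members at each time and were smaller at the first 3 and larger at 7 days. The largest mean differences were those of Slfn9 (0.52 ± 0.26) and Slfn3 (-0.42 ± 0.47, SD over 4 time points), which encode Schlafen proteins. The 6 housekeeping genes measured had medians between -0.02 and 0.07 at the 4 times.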

How the data were processed

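The authors hybridised RNA of pooled lung to 8 Affymetrix mouse expression arrays and deposited log2 values made with RMA (version not given in the sources used here). The log base was inferred from the range of the values. After 64 control probe sets were left out, 45037 were tested. By the array annotation 34945 had 1 gene symbol, 932 several and 9160 none, and the first gave 18193 genes.

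PNY and SHAM were compared with time points as replicates, as in the study's methods, by rank products (1000 permutations, 100 for alternatives, coded with numpy 2.4.6 under Python 3.11.15) and limma 3.58.1 in R 4.3.3. The tests were first tried on simulated data. Limma p-values were adjusted over all 45037 probe sets, while the P of rank products and of the exact permutation test were used unadjusted. The rank product P came from shuffling values within each array, so it ranks a gene against other genes. The limma p of PNY against SHAM without a block and the exact permutation p measure the spread between pooled samples of different times. Limma's time, interaction and block fits measure how far the PNY minus SHAM difference varied between times. None measures the spread between mice, and the number of arrays limits the precision. Same-time PNY and SHAM arrays deviated together (r 0.605, 0.357, 0.303 and 0.295 over probe sets), so time point was also a block. PNY of 7 days had a higher r with SHAM of 3 days (0.34). Each other PNY array had its highest r with the SHAM array of the same time.

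Members and gene lists were chosen with earlier results of these data known. Values in every array are given for the 4 members of largest absolute mean difference, the 3 furthest above and below SHAM at each time point and the 5 with the widest range of time means. Alternatives were other scalings, a filter at the median level, averaged probe sets of a gene, and leaving out arrays.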

Additional observations from a re-analysis of the deposited data

Results flagged for a closer look

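Of 80 groups of 4 arrays examined (40 members, PNY and SHAM), 3 held an array whose gap to its nearest neighbour was a large part of the group's range, beyond Dixon's critical value for 4 samples, and chance alone gives such a gap in about 1 of 20 groups. For Irf1 in SHAM the array of 3 days stood above the other 3 (gap 0.892 of the range). For Trim30a in SHAM the array of 1 day stood below them (0.853), and for Ifit2 in PNY the array of 6 hours did (0.831).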

How the results depend on the processing

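Rank products called 0 members under 18 of 20 alternatives, among them both scalings, the filter at the median level, each left-out array, the pairs of the same time point as a block and limma. They called 1 member without both arrays of 1 day (Rsad2) and 1 without both arrays of 7 days (Ifit3), so that leaving out a time point gave 0 to 1. Limma called 0 under all 17, the time point block included. At a fold change of 2, 3 members were lower at 6 hours, 0 at 3 days and 0 at 7 days. The count of 6 members called at 6 hours ranged from 0 to 5 without 1 array, and single members of it were lost in most of these fits. The trended prior called 3 members at 1 day and 4 at 3 days, against 0.39% and 0.401% of all genes. Counts of members lower in PNY and the medians kept their direction under both scalings. The interaction tests called 0 throughout. Pooled RNA, 1 array per surgery and time, and signal near background for Mx1 limit these values.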
